A study of Mus musculus with 12 samples.

Results

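Most of the genes described here code for the cytosolic factors that start and extend protein chains on the ribosome. Kinases and methyltransferases whose symbols carry the factors' names are included. A symbol alone does not show that a gene acts in these steps. The genes were chosen by symbol: protein-coding mouse genes that begin with Eif1 to Eif6, Eef1 or Eef2, without the Eif4ebp genes. This rule gave 65 genes of the 36047 with transcripts in the files, and 62 of them had a mean of at least 10 estimated counts per mouse and were tested among 13970 genes. The 3 that were not tested were Eef1akmt3, Eif4e1b and Eif5a2, with means of 3.42, 5.25 and 8.25 counts. The tested factor with the fewest counts was Eef1akmt2, with a mean of 69.8, and the one with the most was Eef1a1, with 89702.

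Livers of 12 adult male C57Bl/6J mice were sequenced after 7 days on a diet, 3 mice in each of 4 groups. RF.Ctrl and HF.Ctrl mice ate a control diet with a regular or a high fat content, and RF.SAAR and HF.SAAR mice ate the sulfur amino acid restricted (SAAR) diet at the same fat contents. All diets lacked cysteine, the restricted diets held less methionine with glutamic acid in its place, and all mice were briefly deprived of food before the liver was taken. The comparisons ask how restriction changed the liver at each fat content, and whether fat content changed that response. In whole liver, fewer cells of a type and less RNA per cell cannot be told apart.

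Initiation begins when eIF2 brings the initiator tRNA to the small ribosomal subunit, eIF3 and eIF1 hold that complex ready, and the eIF4 factors recruit it to the capped mRNA. eEF1A then delivers each aminoacyl-tRNA, and eEF2 moves the ribosome along by a codon. Amino acid shortage acts on this machinery mainly through protein phosphorylation: kinases of eIF2 slow initiation and set off the integrated stress response, the mTORC1 pathway governs cap binding and the mRNAs with a 5′ terminal oligopyrimidine (TOP) tract, and eEF2 kinase slows elongation. RNA levels report none of these phosphorylations.

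Total estimated counts ranged from 16203094 to 21230092 per mouse. Hepatocyte marker genes were high in every mouse, at 77233 to 100246 normalized CPM (counts scaled to library size) summed over 8 genes. That sum did not overlap on regular fat, at 86345 to 100246 CPM in control and 77233 to 85624 CPM in restricted mice, and neither did the sum over 5 erythroid genes, at 595 to 670 and 319 to 392 CPM. The 7 genes listed as adipose markers were Adipoq, Plin1, Cidec, Retn, Cfd, Lep and Car3, of which 5 had a mean of at least 10 counts. On high fat their sum was without overlap, at 2459 to 3151 CPM in control and 1117 to 1521 CPM in restricted mice. Whether adipose cells or other cells of the liver gave this RNA was not tested. The sums for skeletal muscle, Kupffer cells and macrophages, lymphocytes, and endothelial and stellate cells overlapped at both fat contents, and the part of any of these cells in the results on the factors was not tested. The sum over 20 pancreatic acinar genes was 39.4 to 82.3 CPM in 7 mice and 1314 to 16529 CPM in the other 5, which were 1 RF.Ctrl, 2 HF.Ctrl and 2 HF.SAAR mice. None of the 20 genes was at 0 in all mice. Levels between mice are given in normalized CPM, in which library sizes are scaled by the TMM method, and levels between genes in TPM, which are transcript abundances per length. The scaling factors were 0.864 to 0.9997 in the Ctrl mice and 0.981 to 1.11 in the SAAR mice. Without them the median log2 fold change of all genes in SAAR vs. Ctrl was 0.16 and not near 0, and changes are given here relative to that shift.

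At the level of RNA, the abundance of the factors spanned several orders of magnitude. Eef1a1, the main carrier of aminoacyl-tRNA, had a mean of 3652 TPM over the 12 mice, with a range of 2453 to 4761, of the 7416 TPM that the 65 factors summed to. Eef2, the translocase, was next at 356 TPM, so that Eef1a1 stood 10.3 times above it, with 9.35 to 11.6 times in single mice. Eif4a2 and Eif4a1, both helicases of the cap complex, had means of 335 and 228 TPM, Eif1 had 314 and Eif5a, the hypusinated factor, had 266. Eef1a2, the muscle and neuron form of eEF1A, was at 6.77 TPM.

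Subunits of the same complex were not equally abundant as RNA. The 14 eIF3 genes ran from 9.89 TPM for Eif3j1 to 112 TPM for Eif3h, with a median of 43.5. The 4 eIF2 genes lay closer, between 19.8 TPM for Eif2s1, the subunit that is phosphorylated under stress, and 43.5 TPM for Eif2s2. The 5 genes of eIF2B, which reloads eIF2 with GTP, ran from 7.51 TPM for Eif2b3 to 27.1 TPM for Eif2b4. Most regulatory kinases were among the least abundant tested factors, with Eif2ak2 at 5.64 TPM, Eif2ak3 at 3.67, Eef2k at 2.93 and Eif2ak4 at 1.51. Eif4e3 at 2.39 TPM and Eef2kmt at 5.10 lay as low, and the kinase Eif2ak1 was higher, at 13.5 TPM.

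**Figure D1:**
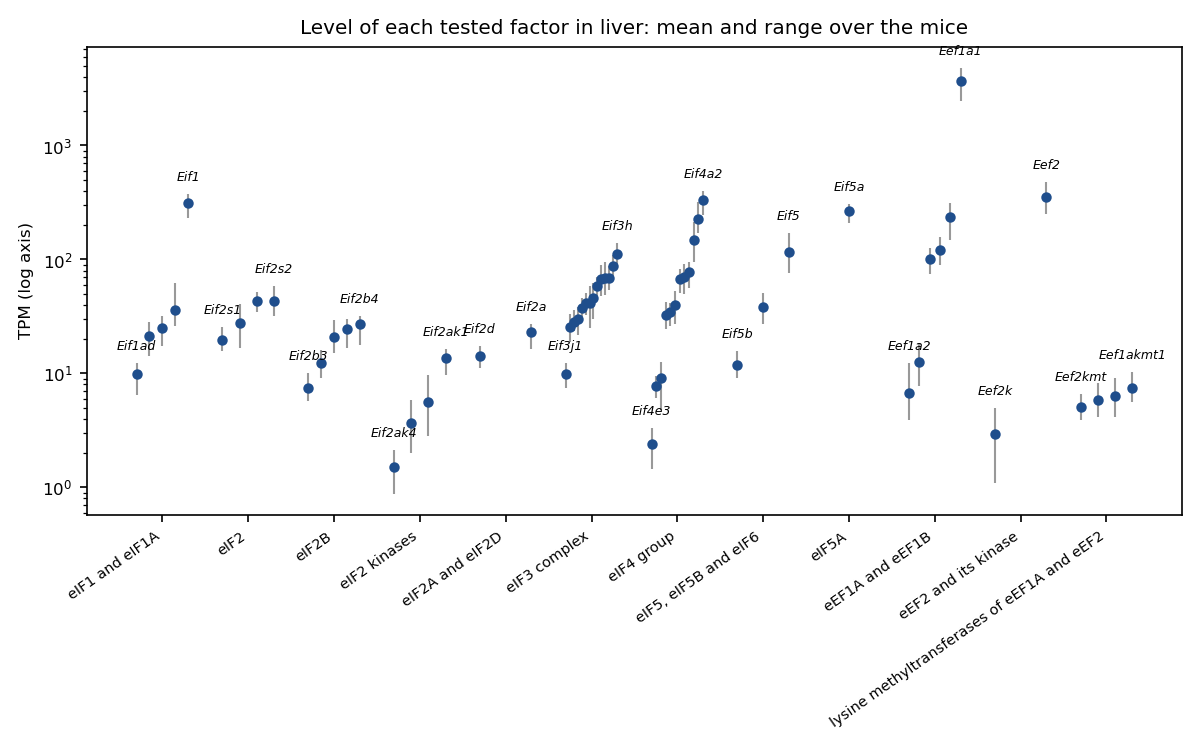
TPM of the 62 tested factors on a log axis, grouped by role; points are means over 12 mice, lines run from the lowest to the highest mouse, and the most and least abundant factor of each role is named. Eef1a1 stands alone at 3652 TPM, and the eIF2 kinases and Eef2k lie between 1.51 and 13.5 TPM.

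Part of this RNA was assigned to transcripts that are not annotated as protein coding. The protein-coding share of a factor's TPM was 99.3% for Eef1a1 and 97.5% for Eef2, but 60.4% for Eif4a2, 53.0% for Eef1b2, 43.8% for Eif5b and 38.9% for Eif1ax. In Eef1b2, a single transcript annotated for nonsense-mediated decay held 42.7% of the gene's TPM, and in Eif1ax and Eif5b transcripts with a retained intron held 61.1% and 45.1%.

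On the restricted diet, 7 of the factors rose by small amounts and 1 fell. In SAAR vs. Ctrl over both fat levels, 7 of the 62 were called higher by edgeR's quasi-likelihood test at an adjusted p under 0.05, where 3.39% of all genes tested were called higher. The 7 were Eif2ak3, Eif3a, Eif4enif1, Eif4g2, Eif5, Eef1a1 and Eef2. Only Eef2k, the kinase that inhibits eEF2, was called lower, where 3.89% of all genes were. At p under 0.05 before adjustment, 19 factors lay higher and 3 lower, where 10.3% and 10.5% of all genes did.

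The sizes were small, between 1.16-fold and 1.36-fold for the 7 that rose. The median log2 fold change of the 62 factors was 0.07, beside -0.004 over all genes tested, and 47 of the 62 had a positive value, beside 49.3% of all genes. No SAAR mouse overlapped with a Ctrl mouse in 5 factors that were higher, Eif3a, Eif4enif1, Eif4g2, Eef1a1 and Eef2, where 1.98% of all genes showed the same, and in 1 that was lower, Eef2k, where 2.48% did.

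Each fat content on its own gave fewer calls. In RF.SAAR vs. RF.Ctrl, Eif5 was the only factor called higher, where 0.63% of all genes were, and none was called lower, where 0.945% were. At p under 0.05 before adjustment, 7 factors lay higher and 3 lower, where 6.42% and 7.60% of all genes did. DESeq2 called 3 upwards and 1 downwards, where it called 4.40% of all genes in either direction. In HF.SAAR vs. HF.Ctrl, Eef1a1 was the only factor called higher, where 1.06% of all genes were, and none was called lower, where 1.03% were. At p under 0.05 before adjustment, 13 lay higher and 2 lower, where 6.64% and 6.14% of all genes did. DESeq2 called 5 upwards and 1 downwards, where it called 4.42% of all genes in either direction. The medians of the 62 factors were 0.08 and 0.10 on the log2 scale.

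Counts without overlap ran the same way. The 3 RF.SAAR mice lay above all 3 RF.Ctrl mice in 14 factors, where 8.61% of all genes did, and below them in 3, where 9.92% did. The 3 HF.SAAR mice lay above all 3 HF.Ctrl mice in 13 factors, where 9.1% of all genes did, and below them in 3, where 9.17% did. With 3 mice against 3, an exact permutation test of a single gene cannot give a p below 0.10. In summed normalized CPM, the 65 factors held 10738 ± 175 and 11721 ± 208 in the control and restricted mice on regular fat, and 10401 ± 599.6 and 12281 ± 212 in those on high fat (SD, n = 3), a sum in which Eef1a1 has the largest share.

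**Figure D2:**
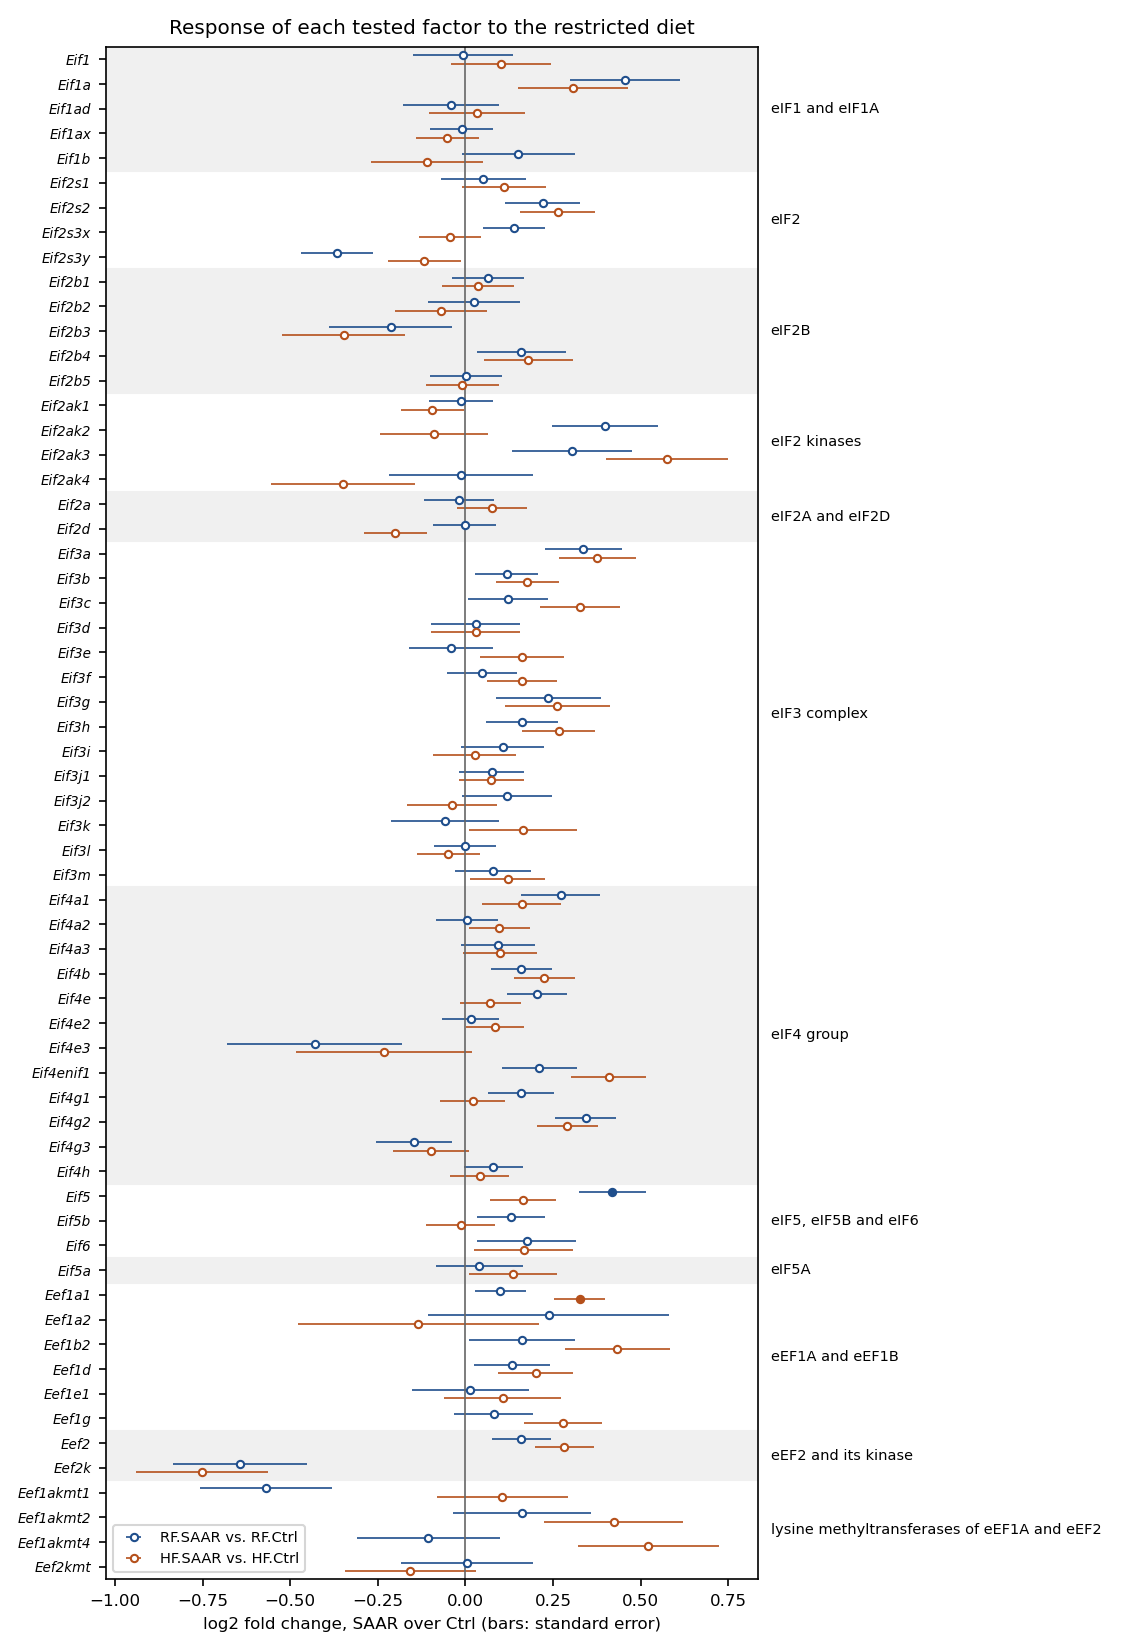
Log2 fold change of each of the 62 tested factors with its standard error, RF.SAAR vs. RF.Ctrl in blue and HF.SAAR vs. HF.Ctrl in orange, grouped by role; filled points passed the adjusted threshold. Most points lie a little to the right of 0, Eef2k lies at -0.64 and -0.75, and Eif5 and Eef1a1 carry the only filled points.

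Among the elongation factors, Eef2k had the largest log2 fold change of the 62 factors over both fat levels. It lies at chr7:120842831-120907450 on the plus strand (GRCm38). Its level was 9.98, 9.80 and 8.14 CPM in RF.Ctrl and 6.47, 4.39 and 7.02 CPM in RF.SAAR mice. It was 10.8, 9.28 and 13.0 CPM in HF.Ctrl and 6.28, 6.03 and 7.29 CPM in HF.SAAR mice. Every restricted mouse lay below every control mouse.

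Over both fat levels Eef2k fell by 0.70 ± 0.13 on the log2 scale (SE, adjusted p = 0.00693 by edgeR), to 0.616 of the control level. The value was -0.64 ± 0.19 on the regular-fat diet and -0.75 ± 0.19 on the high-fat diet, with adjusted p = 0.118 and 0.0604 by edgeR. Its RNA was spread over several transcripts, with a pair of protein-coding transcripts at 34.5% and 21.9% of its TPM and a retained-intron transcript at 21.8%.

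Eef2 itself moved the other way. In RF.Ctrl mice it stood at 893, 976 and 982 CPM and in RF.SAAR mice at 1130, 1012 and 1042 CPM. In HF.Ctrl mice it stood at 890, 954 and 876 CPM and in HF.SAAR mice at 1120, 1032 and 1156 CPM. The groups did not overlap at either fat content, and over both Eef2 was 1.17-fold higher (log2 0.22 ± 0.06, SE, adjusted p = 0.0404 by edgeR). This call was lost when any of 9 of the 12 mice was left out, with an adjusted p of 0.0382 to 0.105 by edgeR over the 12 fits, and also without the filter on low counts, with effective-length offsets (lengths of transcripts corrected for fragment size) and with the acinar sum as a covariate.

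Eef1a1 had 4532, 4642 and 4865 CPM in RF.Ctrl and 4992, 4989 and 5065 CPM in RF.SAAR mice. It had 4234, 4647 and 4214 CPM in HF.Ctrl and 5317, 5582 and 5520 CPM in HF.SAAR mice. The restricted mice were above the controls at both fat contents, by 1.07-fold and 1.25-fold. The high-fat difference passed the threshold (log2 0.33 ± 0.07, SE, adjusted p = 0.0334 by edgeR), the regular-fat one did not (0.10 ± 0.07, adjusted p = 0.615), and the difference between them had a log2 value of 0.23 ± 0.10 with an unadjusted p of 0.0446, which did not survive adjustment. Over both fat levels Eef1a1 was 1.16-fold higher (log2 0.21 ± 0.05, SE, adjusted p = 0.0224 by edgeR). Leaving out either of 2 HF.Ctrl mice, any HF.SAAR mouse, RF.SAAR replicate 1 or RF.Ctrl replicate 2 ended the high-fat call, with adjusted p up to 0.167, as did fitting the 2 groups alone or the acinar covariate, and the call over both fat levels was lost without HF.Ctrl replicate 1, RF.Ctrl replicate 1 or 2, or HF.SAAR replicate 3, with adjusted p up to 0.0741. Eef1a1 has processed copies in the genome, and reads that these share could have been split between them.

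The exchange factors that reload eEF1A had positive log2 fold changes in SAAR vs. Ctrl over both fat levels. None passed the threshold: Eef1b2 had 0.30 ± 0.11, Eef1g 0.18 ± 0.08 and Eef1d 0.17 ± 0.08 (SE), with adjusted p = 0.121, 0.215 and 0.232 by edgeR.

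Many elongation factors and some initiation factors are known as products of TOP mRNAs, whose translation depends on mTORC1. A list of 9 such factors was made from general knowledge, with earlier results of these data known: Eef1a1, Eef1b2, Eef1d, Eef1g, Eef2, Eif3e, Eif3f, Eif3h and Eif4b. In SAAR vs. Ctrl over both fat levels all 9 had positive values, where 49.3% of all genes did. Their median log2 fold change was 0.19, with a range of 0.06 to 0.30. Of these, 2 were called higher, Eef1a1 and Eef2, where 3.39% of all genes were. The medians were 0.13 at regular fat and 0.27 at high fat, beside medians near 0 over all genes. To show how the annotated starts of these mRNAs compare with such a tract, the first 30 bases are given for each listed factor that had 1 transcript with at least 80% of its TPM, followed by Eif2ak3 and Eif3a, which were also called higher; the longest run of C and T is in capitals.
Eef1a1: TTCCCgagggtgggggagaacggtatataa
Eef1g: TTTCCaactcagcggggctgtagacggaac
Eef2: gttgacgtcagcggTCTCTTCCgccgcagc
Eif3e: gaacaagcgCTCCTTTCCCCCggcaagatg
Eif3f: CTCTTTCTCggcaagatggcttctccggcc
Eif3h: tcacggagcctcgtagttccgCTTCCggcg
Eif4b: cgccgcgccaCCCCCTCgcgctgctttacg
Eif2ak3: cggaaCCCTCgctcaatgggcgatgtctgc
Eif3a: ccggctgggcgcgggcaTCTgctggcgagg

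These sequences are the transcript starts of GENCODE M21 on GRCm38, at chr9:78481695-78481724 (minus strand), chr19:8967041-8967070, chr10:81176631-81176660, chr15:43282690-43282719 (minus), chr7:108934417-108934446, chr15:51865494-51865523 (minus), chr15:102073773-102073802, chr6:70844515-70844544 and chr19:60790614-60790643 (minus) in the order shown, all in a first exon. Eif3f begins with its run at the first base, as a TOP mRNA does, with 9 pyrimidines. The runs of Eef1a1 and Eef1g also start at the first base, with a T, and hold 5 pyrimidines each. Those of Eef2 and Eif3e, of 8 and 12, start at bases 15 and 10 of the annotated transcript. Those of Eif4b and Eif3h, of 7 and 5, start at bases 11 and 22. A stretch of at least 7 pyrimidines that starts at a C was then counted, also where it lies inside a run that begins with T, as in Eef2. The first 30 bases of the most abundant transcript held such a stretch in 4 of the 9 listed factors. The same was so in 14 of the 62 tested factors and in 11.4% of 13963 genes. A match, or its absence, describes these letters of the annotation only; the start that the liver uses was not measured.

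Among the initiation factors, Eif4g2 and Eif3a were the most regular. Eif4g2, a scaffold related to eIF4G that lacks the site for eIF4E, had 432, 390 and 414 CPM in RF.Ctrl and 520, 482 and 566 CPM in RF.SAAR mice. It had 402, 406 and 435 CPM in HF.Ctrl and 530, 499 and 492 CPM in HF.SAAR mice. All restricted mice lay above all controls, and Eif4g2 was 1.25-fold higher over both fat levels (log2 0.32 ± 0.06, SE, adjusted p = 0.00774 by edgeR). Its main transcript held 61.3% of its TPM and the next 15.5%, and these stood at 116 ± 12.9 against 75.5 ± 1.85 TPM and at 28.7 ± 4.32 against 18.5 ± 0.32 TPM in RF.SAAR and RF.Ctrl mice (SD, n = 3). On the TPM scale the median of all genes was itself 0.25 higher on the log2 scale in RF.SAAR mice.

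Eif3a, the largest scaffold subunit of eIF3, had 163, 202 and 193 CPM in RF.Ctrl and 248, 207 and 250 CPM in RF.SAAR mice. It had 182, 185 and 185 CPM in HF.Ctrl and 234, 223 and 260 CPM in HF.SAAR mice. Again no restricted mouse overlapped with a control, and the difference over both fat levels was 1.28-fold (log2 0.36 ± 0.08, SE, adjusted p = 0.0136 by edgeR), a call that was lost with effective-length offsets. The other 13 eIF3 genes did not pass the threshold by edgeR. Of these, 12 had positive values, beside 49.3% of all genes, and the median of the 14 was 0.09. Eif3h, the most abundant, had 0.21 ± 0.07 (adjusted p = 0.106) and Eif3c 0.22 ± 0.08 (adjusted p = 0.126 by edgeR). DESeq2 called Eif3h over both fat levels.

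Eif5, which triggers the GTP hydrolysis of eIF2 at the start codon, was called higher in the mice on regular fat. It had 306, 306 and 284 CPM in RF.Ctrl and 372, 405 and 421 CPM in RF.SAAR mice. It had 304, 328 and 321 CPM in HF.Ctrl and 385, 366 and 317 CPM in HF.SAAR mice. The regular-fat groups did not overlap, whereas 1 HF.SAAR mouse lay among the HF.Ctrl mice.

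Eif5 was 1.34-fold higher in RF.SAAR vs. RF.Ctrl (log2 0.42 ± 0.09, SE, adjusted p = 0.0438 by edgeR) and 1.12-fold higher on high fat (0.16 ± 0.09, adjusted p = 0.527). The difference between these responses had a log2 value of -0.26 ± 0.13 with an unadjusted p of 0.076. The regular-fat call was lost when any of 9 of the 12 mice was left out, among them every RF.Ctrl and RF.SAAR mouse, with an adjusted p of 0.0316 to 0.179 by edgeR over the 12 fits, and it was also lost without the low-count filter, with the 2 groups alone and with the acinar covariate. The call over both fat levels was lost without HF.Ctrl replicate 1, HF.SAAR replicate 1 or RF.Ctrl replicate 3, with adjusted p up to 0.0576.

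Eif4enif1, the transporter that binds eIF4E and takes part in mRNA repression, had 18.7, 18.7 and 20.95 CPM in RF.Ctrl and 22.7, 23.1 and 21.8 CPM in RF.SAAR mice. It had 15.4, 19.2 and 15.9 CPM in HF.Ctrl and 23.0, 22.3 and 21.7 CPM in HF.SAAR mice. No restricted mouse overlapped with a control, and the difference over both fat levels was 1.24-fold (log2 0.31 ± 0.08, SE, adjusted p = 0.0239 by edgeR). With effective-length offsets the call was lost, and leaving out HF.Ctrl replicate 1 or 3, HF.SAAR replicate 1, or RF.Ctrl replicate 1 or 2 gave adjusted p up to 0.072.

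Other parts of the cap complex did not pass the threshold by edgeR. Eif4e, the cap-binding protein, was at 43.3 ± 1.9 CPM in RF.Ctrl, 49.9 ± 2.97 in RF.SAAR, 46.0 ± 3.33 in HF.Ctrl and 48.3 ± 0.981 in HF.SAAR mice (SD, n = 3). Eif4g1, the main scaffold, was at 284 ± 5.97, 317 ± 26.6, 286 ± 20.8 and 290 ± 15.99 CPM in the same order. Eif4b, which stimulates the helicase, had a log2 fold change of 0.19 ± 0.06 over both fat levels (adjusted p = 0.0823 by edgeR), and DESeq2 called it there. Eif4a2 was at 399 ± 26.2, 400 ± 10.2, 435 ± 25.0 and 465 ± 30.1 CPM, and its fold change in SAAR vs. Ctrl was 1.04. Eif4e3, a relative of Eif4e, had the lowest value of the group at -0.33 ± 0.18 on the log2 scale (SE, adjusted p = 0.319 by edgeR).

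Among the factors that choose the start codon, Eif1a had a log2 fold change of 0.38 ± 0.11 over both fat levels (adjusted p = 0.0551 by edgeR). DESeq2 called Eif1a there, as did edgeR with RLE size factors, with library sizes alone or without the filter on low counts. Eif1 and Eif5a had 0.05 ± 0.10 and 0.09 ± 0.09 (SE), with adjusted p = 0.854 and 0.647 by edgeR.

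**Figure D3:**
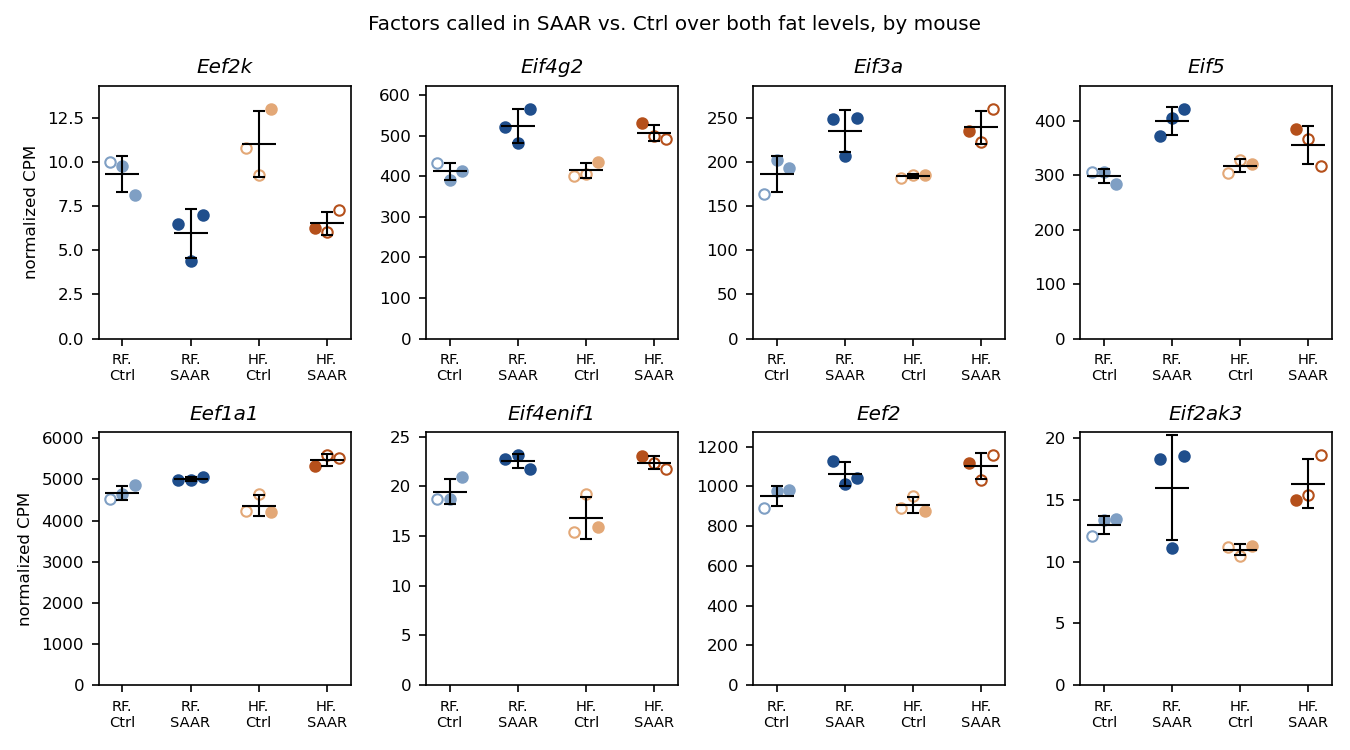
Normalized CPM of the 8 factors called in SAAR vs. Ctrl over both fat levels; each point is a mouse, open points are the 5 mice with over 1000 CPM of acinar genes, and black lines are the mean and SD of 3 mice. Eef2k is lower in every restricted mouse, and in Eif5 and Eif2ak3 1 restricted mouse falls among the controls.

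The integrated stress response starts from 4 kinases that phosphorylate eIF2. Eif2ak3, which codes for PERK, the kinase of the endoplasmic reticulum, had 12.1, 13.4 and 13.4 CPM in RF.Ctrl and 18.3, 11.1 and 18.6 CPM in RF.SAAR mice. It had 11.2, 10.4 and 11.2 CPM in HF.Ctrl and 15.0, 15.4 and 18.6 CPM in HF.SAAR mice. RF.SAAR replicate 2 lay below all RF.Ctrl mice, and the high-fat groups did not overlap.

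Over both fat levels Eif2ak3 was 1.36-fold higher (log2 0.44 ± 0.12, SE, adjusted p = 0.0453 by edgeR). This was the least stable of the 8 calls: it was lost without any single mouse other than RF.SAAR replicate 2, with an adjusted p of 0.00299 to 0.117 by edgeR over the 12 fits, and also with effective-length offsets or the acinar covariate.

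Eif2ak4, which codes for GCN2, the kinase that senses uncharged tRNA, was at 7.32 ± 0.677 CPM in RF.Ctrl, 7.26 ± 0.976 in RF.SAAR, 8.32 ± 2.39 in HF.Ctrl and 6.52 ± 0.824 in HF.SAAR mice (SD, n = 3). Eif2ak1, the heme-regulated kinase, was at 55.2 ± 0.759, 54.8 ± 3.04, 55.2 ± 3.21 and 51.7 ± 4.18 CPM in the same order. Neither passed the threshold in any comparison, and the groups overlapped at both fat contents.

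Eif2ak2, which codes for PKR, the kinase that binds double-stranded RNA and is induced by interferon, was highest in the RF.SAAR mice but was not called by edgeR. It had 17.7, 16.1 and 20.9 CPM in RF.Ctrl and 24.4, 22.4 and 25.3 CPM in RF.SAAR mice. It had 15.3, 13.3 and 18.5 CPM in HF.Ctrl and 17.5, 12.8 and 14.0 CPM in HF.SAAR mice. The RF.SAAR mice lay above all the others, and the other 3 groups overlapped.

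In HF.SAAR vs. RF.SAAR, Eif2ak2 had a log2 fold change of -0.70 ± 0.15 (SE) with an unadjusted p of 0.000457, and an adjusted p = 0.273 by edgeR; DESeq2 gave an adjusted p of 0.00969, and over all alternatives the adjusted p ran from 0.00969 to 1. The difference between the responses to restriction had a log2 value of -0.49 ± 0.22 with an unadjusted p of 0.0414, which did not survive adjustment. Across the 12 mice the log2 level of Eif2ak2 had a Pearson correlation of -0.81 with the log2 acinar sum, given as a description. With the log2 sum of the interferon-stimulated genes listed next, the correlation was 0.55. None of the 5 acinar-rich mice was an RF.SAAR mouse, so acinar RNA and group cannot be told apart in the first value. With the acinar sum as a covariate the log2 fold change in HF.SAAR vs. RF.SAAR was -0.47. Without the 5 acinar-rich mice, which leaves 1 HF.SAAR mouse, it was also -0.47. The part of acinar RNA in the difference was not tested further.

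A list of 15 other interferon-stimulated genes had positive log2 fold changes in all 15 members at both fat contents. Of all genes, 49.7% were positive at regular fat and 50.0% at high fat. By edgeR, 4 of the 15 were called higher at regular fat and 2 at high fat, where 0.63% and 1.06% of all genes were. Their summed level ran from 264 to 282 CPM in the control and from 366 to 440 CPM in the restricted mice on regular fat, and from 209 to 262 CPM and from 288 to 366 CPM in those on high fat. The highest level of both Eif2ak2 and the summed list was thus in RF.SAAR mice, whereas Eif2ak2 was at 14.8 ± 2.44 CPM in HF.SAAR and 15.7 ± 2.66 in HF.Ctrl mice (SD, n = 3).

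The substrate of the kinases showed no call by edgeR. Eif2s1 was at 52.9 ± 1.87 CPM in RF.Ctrl, 54.8 ± 5.60 in RF.SAAR, 52.5 ± 7.69 in HF.Ctrl and 56.7 ± 5.62 in HF.SAAR mice (SD, n = 3). Eif2s2, the beta subunit, had a log2 fold change of 0.24 ± 0.08 over both fat levels (adjusted p = 0.0743 by edgeR), and DESeq2 called it there. The gamma subunit is encoded by a gene pair on the X and Y chromosomes. Eif2s3y had 70.6, 67.8 and 64.3 CPM in RF.Ctrl and 53.4, 56.6 and 47.2 CPM in RF.SAAR mice, without overlap, and 57.9, 69.9 and 65.4 CPM in HF.Ctrl and 54.9, 62.3 and 61.0 CPM in HF.SAAR mice, with overlap.

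For Eif2s3y, restriction gave a log2 fold change of -0.37 ± 0.10 at regular fat and -0.24 ± 0.07 over both fat levels, with adjusted p = 0.107 and 0.066 by edgeR. DESeq2 called Eif2s3y in both of these comparisons. The ratio of Eif2s3x to Eif2s3y in TPM was 0.550 ± 0.0372 among RF.Ctrl mice, compared with 0.867 ± 0.206 for RF.SAAR, and on high fat it was 0.6003 ± 0.116 for the control and 0.582 ± 0.117 for the restricted mice (SD, n = 3). The copies are close in sequence, and the split of shared reads between them rests on the pseudoalignment.

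The 5 eIF2B genes showed no call by edgeR or DESeq2. Eif2b3 had a log2 fold change of -0.28 ± 0.12 and Eif2b4 0.17 ± 0.09 over both fat levels (SE), with adjusted p = 0.215 and 0.314 by edgeR. Of the factors that carry initiator tRNA without eIF2, Eif2d had -0.20 ± 0.09 at high fat (adjusted p = 0.37 by edgeR) and Eif2a had 0.03 ± 0.07 over both fat levels (adjusted p = 0.876).

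**Figure D4:**
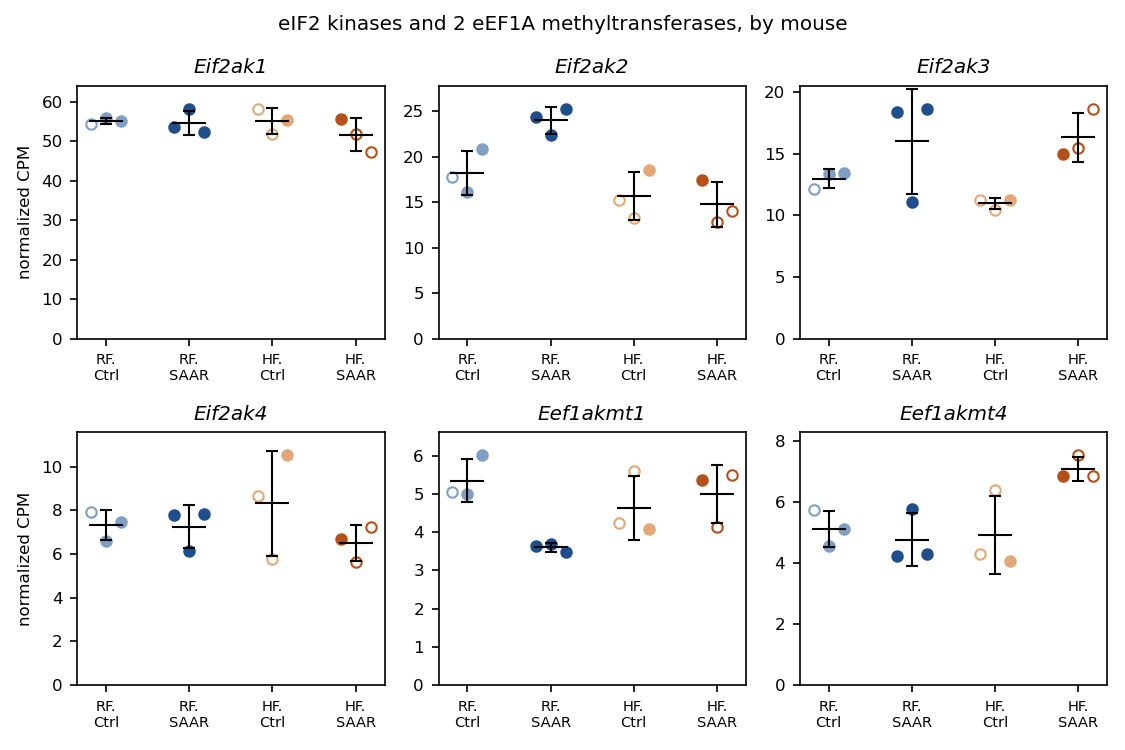
Normalized CPM of the 4 eIF2 kinases and of 2 methyltransferases of eEF1A; each point is a mouse, open points are the 5 mice with over 1000 CPM of acinar genes, and black lines are the mean and SD of 3 mice. The RF.SAAR mice are highest in Eif2ak2 and lowest in Eef1akmt1.

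Fat content alone left the factors without a call. In HF.Ctrl vs. RF.Ctrl no factor was called by edgeR or DESeq2, where 0% and 0.222% of all genes were. None had an unadjusted p under 0.05 by edgeR, beside 3.72% of all genes. In HF.SAAR vs. RF.SAAR none was called by edgeR, where 0.0501% of all genes were; 4 had an unadjusted p under 0.05, as did 5.67% of all genes, and DESeq2 called Eif2ak2, where it called 0.637% of all genes. In the test of whether the response to restriction differed with fat, none was called by edgeR or DESeq2, where 0.00716% and 0.115% of all genes were. There, 4 factors had an unadjusted p under 0.05 by edgeR, as did 3.16% of all genes.

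Those 4 were Eef1a1, Eif2ak2 and the lysine methyltransferases Eef1akmt1 and Eef1akmt4. Eef1akmt1 had 5.05, 5.004 and 6.01 CPM in RF.Ctrl and 3.63, 3.70 and 3.48 CPM in RF.SAAR mice, and 4.23, 5.61 and 4.07 CPM in HF.Ctrl and 5.36, 4.13 and 5.50 CPM in HF.SAAR mice. The regular-fat groups did not overlap and the high-fat groups did. Its log2 fold change was -0.57 ± 0.19 and 0.10 ± 0.19 on regular and high fat, and the difference was 0.67 ± 0.27 (SE, unadjusted p = 0.0243 in edgeR's fit over all genes). Eef1akmt4 had -0.11 ± 0.20 and 0.52 ± 0.20, with a difference of 0.63 ± 0.29 (unadjusted p = 0.0467 in edgeR's fit). These rest on means of 84.8 and 101 counts per mouse.

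Genes that act beside the factors were counted from lists made in the same way. In SAAR vs. Ctrl over both fat levels, the 5 genes of the 4E-BPs and of kinases of eIF4E held 1 call, Eif4ebp1, the mTORC1-regulated inhibitor of eIF4E, at 43.1 ± 2.75 CPM in RF.Ctrl, 57.5 ± 6.95 in RF.SAAR, 42.6 ± 13.2 in HF.Ctrl and 75.5 ± 4.54 in HF.SAAR mice (SD, n = 3). Its log2 fold change was 0.62 ± 0.12 over both fat levels (adjusted p = 0.0098 by edgeR) and 0.82 ± 0.18 at high fat (adjusted p = 0.0302). Of 9 release and recycling factors, Etf1, the stop codon release factor, was called higher over both fat levels (0.32 ± 0.08, adjusted p = 0.02). Of 7 poly(A)-binding proteins and their partners, Pabpc4 was called higher (0.36 ± 0.09, adjusted p = 0.0228 by edgeR). Over both fat levels, edgeR called 3.39% of all genes higher and 3.89% lower. No gene was called by edgeR or DESeq2 in the other 3 lists: 11 genes of the eIF2 phosphatase and of GCN2 partners, 8 of hypusine and diphthamide synthesis and 9 mitochondrial translation factors, with median log2 fold changes of 0.02, 0.07 and -0.02 over both fat levels and 1, 3 and 1 genes at an unadjusted p under 0.05 by edgeR.

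Calls over both fat levels were also counted with the acinar sum in the fit and without the acinar-rich mice. With the sum as a covariate, 8 factors were called over both fat levels, 7 higher and 1 lower, beside 1106 genes in all, or 7.92%. Of these 8, Eef1a1, Eef2k, Eif3a, Eif4enif1, Eif4g2 and Eif5 were also called without the covariate, while Eef1b2 and Eif2s2 took the place of Eef2 and Eif2ak3. Without the 5 acinar-rich mice, only 2 control and 3 restricted mice were left on regular fat and 1 of each on high fat. In that set no call of a factor remained by edgeR, and fewer genes in all were called over both fat levels. In that smaller set the 8 factors kept their direction over both fat levels, with -0.83 ± 0.22 for Eef2k, 0.32 ± 0.11 for Eif4g2, 0.28 ± 0.12 for Eif3a, 0.34 ± 0.11 for Eif5, 0.19 ± 0.11 for Eef1a1, 0.35 ± 0.12 for Eif4enif1, 0.22 ± 0.11 for Eef2 and 0.32 ± 0.21 for Eif2ak3 (log2, SE), and adjusted p of 0.101 to 0.487.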

How the data were processed

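Liver RNA of 12 mice was sequenced, and the labels assign 3 separate mice to each group (the labels' fields for diet and for dietary fat content hold each other's values). The authors trimmed reads with cutadapt and pseudoaligned them with kallisto to the Ensembl 94 mouse transcriptome; the deposited files give estimated counts, TPM and an effective length per transcript and mouse. The versions of these tools are not repeated here.

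Of 118489 transcripts, 116816 matched GENCODE M21 (GRCm38, also used for coordinates) and were summed to 36047 genes; the 1673 others held 0.704% to 1.80% of a mouse's estimated counts and were not used. Summed counts were rounded, and genes with a mean of at least 10 were tested with edgeR 4.0.16 in R 4.3.3 (TMM factors, quasi-likelihood test over all 4 groups, Benjamini-Hochberg adjustment over 13970 genes, threshold 0.05). Normalized CPM are counts scaled to the TMM-adjusted library size. DESeq2 1.42.0 and the other alternatives are given in the closing section. Effective lengths entered only the offsets of 1 alternative. The procedure was tested on simulated counts for RF.SAAR vs. RF.Ctrl. It called 8.16% of 98 genes with a true log2 change of 0.5 and 48.5% of 99 genes with a change of 1. Of 13635 genes without a change it called 0.044%. A factor without a call can therefore still have changed by such amounts.

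Factors were named if called in any comparison, if among the 3 with the smallest p in each direction in RF.SAAR vs. RF.Ctrl or HF.SAAR vs. HF.Ctrl, if the most abundant of their role, or if on a fixed list (eIF2 kinases, Eif2s1, Eif4e, Eif4g1, Eif5a, Eef1a1, Eef2, Eef2k). Eef1akmt4, Eif1a, Eif4b, Eef1b2, Eef1d, Eef1g, Eif3c, Eif4e3 and the abundance examples were named after their values were seen. The factors and all lists, the TOP, interferon and marker lists among them, were chosen with earlier results of these data known. Values in groups of 3 were not tested for outlying mice. The p-values measure the spread between separate mice, and counting error is included in the fits.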

Additional observations from a re-analysis of the deposited data

How the results depend on the processing

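With library sizes alone in place of TMM factors, the factors called were 5 at regular fat, 13 at high fat and 35 in SAAR vs. Ctrl over both fat levels, of which 34 were higher and 1 lower, beside 7 and 1 with TMM. The shares of all genes called under that scaling were 3.10%, 5.20% and 17.7%. The medians of the factors became 0.243, 0.275 and 0.239 in these comparisons and -0.0745 in HF.Ctrl vs. RF.Ctrl, beside medians of 0.16, 0.17, 0.16 and -0.06 over all genes under the same scaling. DESeq2 called 4, 6 and 13 factors in the 3 comparisons with restriction and 1 in HF.SAAR vs. RF.SAAR, where it called 4.40%, 4.42%, 9.96% and 0.637% of all genes. Effective-length offsets left 4 calls over both fat levels, where 5.33% of all genes were called. Dropping the filter on low counts left 0 at regular fat, where 0.965% were. Fitting only the compared groups, or adding the acinar sum as a covariate, left 0 calls at regular fat and 0 at high fat. The shares of all genes called were 0.988% and 1.32% with the compared groups alone, and 1.68% and 2.20% with the covariate. With the covariate 8 factors were called over both fat levels, where 7.92% of all genes were. The median of the factors in the test of different responses then became -0.0339. Without the 5 acinar-rich mice there were 0 calls in all comparisons, and the medians were 0.175 at high fat, 0.132 over both fat levels and -0.0824 in HF.Ctrl vs. RF.Ctrl. RLE size factors and the filter by group changed no count by over 1.5 times.

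Leaving out 1 mouse at a time gave 0 to 1 calls at regular fat, 0 to 3 at high fat and 3 to 11 over both fat levels. The shares of all genes called in these fits were 0.666% to 1.84%, 0.873% to 2.29% and 4.78% to 7.22%. The count over both fat levels was 3 without HF.Ctrl replicate 1, where 4.78% of all genes were called. It was 11 without HF.Ctrl replicate 2, where 7.22% were. The medians ran from 0.0407 to 0.108 at regular fat, 0.0429 to 0.185 at high fat, 0.0535 to 0.107 over both fat levels, -0.0834 to 0.0273 in HF.Ctrl vs. RF.Ctrl and -0.0285 to 0.0886 in the test of different responses.

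Some values that were not called changed sign. With library sizes alone, the log2 fold change became 0.158 for Eif1, 0.146 for Eif2a, 0.152 for Eif2ak1 and 0.162 for Eif2d at regular fat, 0.0698 for Eif2ak1, 0.071 for Eif2ak2 and 0.0489 for Eif2s3y at high fat, and 0.111 for Eif2ak1 and 0.0636 for Eif2d over both fat levels. At high fat, Eif2ak2 also became 0.066 with effective-length offsets, and Eif1 ran from -0.0532 without HF.Ctrl replicate 3 to 0.203 without HF.Ctrl replicate 2. Without the acinar-rich mice, Eif2a became -0.136 at high fat and -0.112 over both fat levels, and Eif4a2 -0.0079 and -0.0288. Of 1714 recomputed values for named factors, 1596 kept their direction and side of the threshold. Most of the recomputed values belong to results that were not called in the main fit, so that staying uncalled counts as kept. Of the others, 70 lost a call, 33 gained one and 15 changed sign. Apart from the scaling and the loss of mice, the cause of these shifts was not tested. No paired analysis was possible because the labels carry no replicate numbers; the numbers used here follow the order of the samples and only name a mouse.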
